A study of Mus musculus with 28 samples.

Results

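Phosphate crosses the membranes of kidney and gut cells through a small set of transporters, and 9 genes of that set were followed here: the sodium-phosphate cotransporters Slc34a1, Slc34a2, Slc34a3, Slc20a1 and Slc20a2, the phosphate exporter Xpr1, the PDZ scaffolds Slc9a3r1 and Pdzk1, and the phosphate-linked antiporter Slc37a2. They were taken by gene symbol, and all 9 had an entry in the duodenum table of 31179 symbols and in the kidney table of 30227. RNA came from duodenum and kidney cortex of 8-week-old female mice of 3 vitamin D receptor (Vdr) genotypes. The AF2 mice, named delta AF2, carry a Vdr that lacks activation function 2, where coactivators dock once hormone is bound, and the KO mice are Vdr-/-, named demay in the file headers. WT mice carry the normal gene, and all 3 groups were kept on the TD.96348 diet, in which lactose, phosphate and calcium are high. Each tissue had 4 AF2, 4 KO and 6 WT libraries, 28 in all. The comparison asks whether a receptor that works without its coactivators and the lack of a receptor act differently on mineral balance.

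The type II cotransporters Slc34a1 (NaPi-IIa) and Slc34a3 (NaPi-IIc) sit in the brush border of the kidney proximal tubule and take phosphate back from the filtrate, with NaPi-IIa the main carrier in mice. Slc34a2 (NaPi-IIb) does the same work in the small intestine, and in mice it is strongest in the ileum. Parathyroid hormone and the bone hormone FGF23 remove the renal carriers from the brush border, whereas calcitriol, the hormone that binds Vdr, raises intestinal absorption. The type III cotransporters Slc20a1 (PiT-1) and Slc20a2 (PiT-2) are found in most cells. Xpr1 lets phosphate out, and Slc9a3r1 (NHERF1) and Pdzk1 hold NaPi-IIa in place through PDZ domains that grip the end of its tail. Slc37a2 exchanges sugar phosphate for phosphate.

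Values are CPM, the deposited 3′-tag counts scaled to the library total after TMM scaling, given as mean ± SD over libraries. Library totals were 3713352 to 25181916 counts in duodenum and 3725648 to 6492228 in kidney, and every count was even, so reads are counts divided by 2. Kidney AF2 4 stood apart from the other AF2 kidneys in 4.66% of 9577 expressed genes, against 0.637% to 0.95% for each of the other AF2 kidneys. Immune markers summed to 68.1 to 125 CPM in AF2 kidneys, 64.9 to 102 CPM in KO kidneys, and 66.4 to 92.1 CPM in WT kidneys except WT 1, which had 738 CPM. Vdr, the targeted gene on chromosome 15, averaged 80.9 CPM in AF2 kidneys, 17.05 CPM in KO kidneys and 197 CPM in WT kidneys, and 398, 111 and 487 CPM in AF2, KO and WT duodenum. Where in the gene each change lies is not given in the sources used here, so a 3′ tag need not report on it. The labels do not say whether duodenum and kidney came from the same mice, nor that replicates were separate mice, so p-values measure the spread between these samples. In tissue RNA, fewer cells of a type and less RNA per cell cannot be told apart.

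In kidney cortex, a single gene of the set passed the test: the scaffold Slc9a3r1 was lower in AF2 kidneys. All 9 genes passed the expression filter. In the comparison of AF2 with WT, 1 of 9 was called at an adjusted p under 0.05 in edgeR, against 2.71% of all 13502 genes tested, or 1.63% in the lower direction. The median log2 fold change was -0.07 over the 9 genes and 0.00 over all genes. In KO against WT, 0 of 9 were called by edgeR and 0 by DESeq2, against 0.844% of all genes by edgeR. An unadjusted p under 0.05 was found for 1 of the 9 and for 1424 of all genes. In AF2 against KO, 0 of 9 were called by either tool, against 0.333% by edgeR. An unadjusted p under 0.05 was found for 0 of the 9 and for 1553 of all genes. AF2 and KO were set against the same WT libraries.

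**Figure D1:**
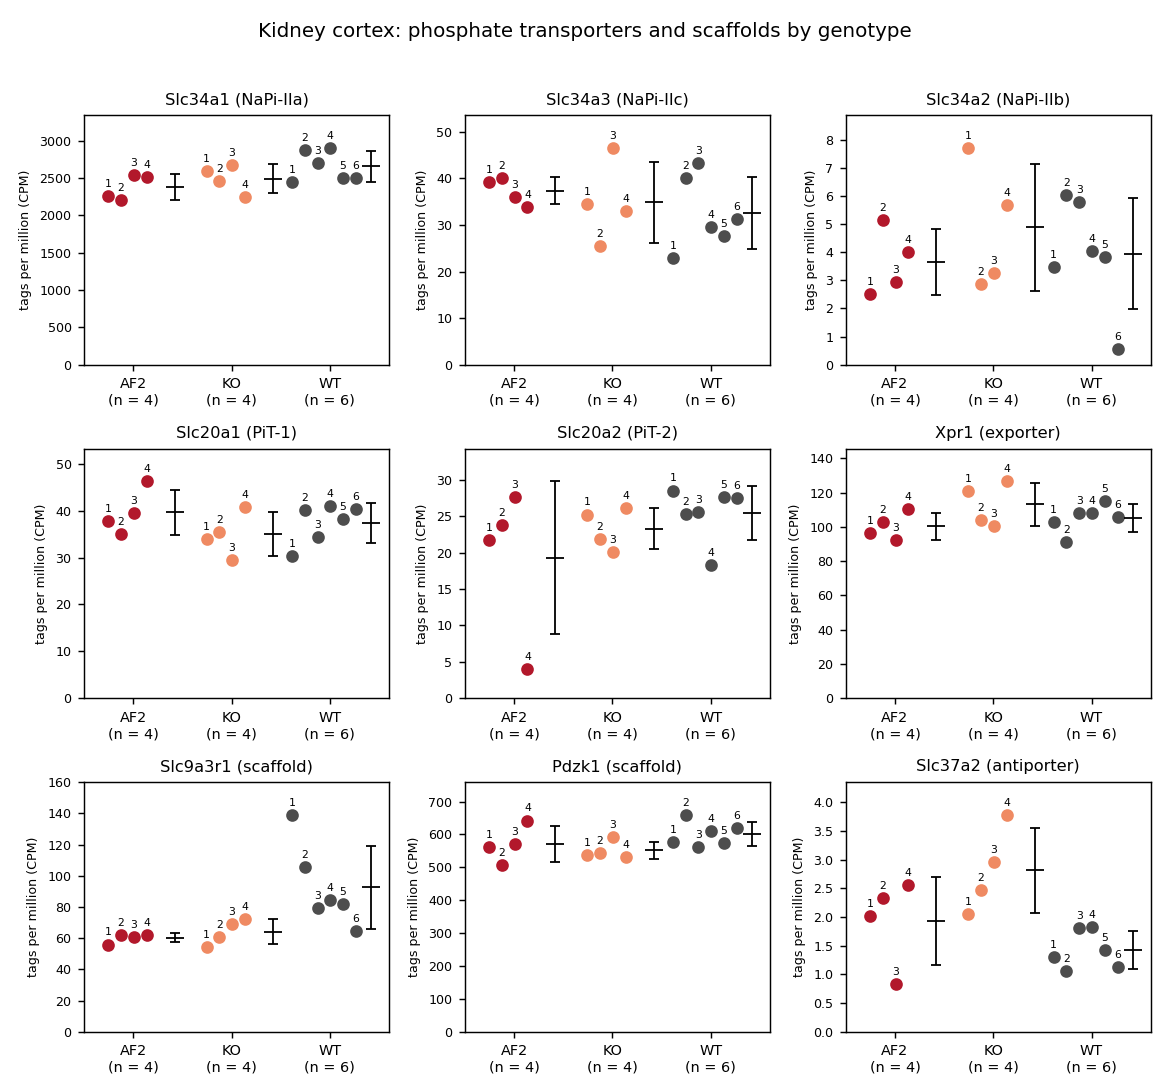
CPM of the 9 genes in kidney cortex (y axis, from 0, with a scale of its own in each panel) by genotype (x axis). Each point is 1 library with its replicate number, and the bar beside each group is the mean ± SD. Slc9a3r1 lies between 56.0 and 62.1 CPM in the 4 AF2 kidneys and at or above 64.4 CPM in the 6 WT kidneys, Slc34a1 overlaps between genotypes, and AF2 4 is low for Slc20a2.

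Slc34a1, on chromosome 13 at 55398187 to 55415592 (plus strand, mm10), had the most 3′ tags of the 9 genes. The 4 AF2 kidneys had 2251, 2206, 2536 and 2518 CPM, and the 4 KO kidneys had 2591, 2462, 2670 and 2238 CPM. The 6 WT kidneys ranged from 2439 to 2905 CPM with a median of 2600 CPM. The ranges overlapped, with the lowest AF2 and KO kidneys below every WT kidney. The mean was 2378 ± 173 CPM in AF2 kidneys (SD, n = 4), 2490 ± 189 in KO kidneys (n = 4) and 2653 ± 205 in WT kidneys (n = 6). AF2 against WT gave a log2 fold change of -0.16 ± 0.09 (SE), with a 95% interval of -0.35 to 0.03 and an edgeR adjusted p of 0.464. For KO against WT it was -0.09 ± 0.09, with an interval of -0.28 to 0.10 and an adjusted p of 0.790.

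Slc34a3, on chromosome 2, averaged 37.4 ± 2.92 CPM in AF2 kidneys, 34.9 ± 8.75 in KO kidneys and 32.5 ± 7.76 in WT kidneys. The AF2 kidneys spanned 33.9 to 40.2 CPM, inside the WT span of 22.9 to 43.3 CPM. Its log2 fold change was 0.19 ± 0.17 for AF2 against WT (edgeR adjusted p 0.659) and 0.10 ± 0.17 for KO against WT (0.890). Set against the main carrier, Slc34a3 made up 1.33% to 1.79% of the Slc34a1 and Slc34a3 reads in AF2 kidneys, 1.03% to 1.72% in KO kidneys and 0.93% to 1.58% in WT kidneys. These spans overlapped. Within the library code runs (WT 5 and 6 with AF2, WT 3 and 4 with KO), all 4 AF2 kidneys lay above WT 5 and 6 for Slc34a3 (27.7 and 31.4 CPM), and all 4 KO kidneys lay below WT 3 and 4 for Slc34a1 (2696 and 2905 CPM). How often all genes part in this way, 4 libraries against 2, was not counted. Tags of different genes may be caught with unequal efficiency, so the Slc34a3 shares rank libraries and not carriers. Slc34a2, the gut isoform on chromosome 5, was near the limit of detection in kidney, with 34 reads over the AF2 kidneys, 48 over the KO kidneys and 61 over the WT kidneys. Its mean was 3.65, 4.88 and 3.95 CPM in AF2, KO and WT kidneys, and WT 6 had 1 read.

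The type III pair and the exporter were not called in kidney, and for Slc20a2 1 library lay apart. Slc20a1 averaged 39.6 ± 4.78 CPM in AF2 kidneys, 34.9 ± 4.67 in KO kidneys and 37.4 ± 4.26 in WT kidneys. Slc20a2 had 21.7, 23.8, 27.7 and 4.01 CPM in AF2 kidneys 1 to 4 and 20.1 to 26.1 CPM in KO kidneys, against 18.3 to 28.5 CPM in WT kidneys with a median of 26.5 CPM. AF2 4, with 11 reads, lay far below the other 13 kidneys. For AF2 against WT the log2 fold change of Slc20a2 was -0.41 ± 0.34 (edgeR adjusted p 0.638) and was -0.06 without AF2 4. Slc20a1 made up 92.0% of the type III reads in AF2 4 and 51.5% to 69.1% in the other kidneys. Xpr1, on chromosome 1, averaged 100 ± 7.91 CPM in AF2 kidneys, 113 ± 12.7 in KO kidneys and 105 ± 7.98 in WT kidneys, with edgeR adjusted p-values of 0.841 for AF2 against WT and 0.784 for KO against WT.

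Slc9a3r1, which encodes NHERF1, lies on chromosome 11 at 115163341 to 115181181 (plus strand, mm10). The AF2 kidneys had 56.0, 62.1, 60.8 and 61.9 CPM, and the KO kidneys had 54.6, 60.9, 69.0 and 72.2 CPM. WT kidneys 1 to 6 had 139, 106, 79.1, 84.6, 82.1 and 64.4 CPM. No AF2 kidney reached the lowest WT kidney, whereas 2 KO kidneys lay above it. The mean was 60.2 ± 2.89 CPM in AF2 kidneys, 64.2 ± 7.99 in KO kidneys and 92.6 ± 26.4 in WT kidneys. For AF2 against WT the log2 fold change was -0.62 ± 0.15 (95% interval -0.94 to -0.30, edgeR adjusted p 0.0230). This gene alone among the 9 had AF2 kidneys wholly below WT, as did 2.36% of all genes tested. For KO against WT the log2 fold change was -0.53 ± 0.15 (interval -0.84 to -0.21) with an adjusted p of 0.118. The KO value was -0.35 (adjusted p 0.738) with the library code runs as a block and -0.38 (0.219) without WT 1, and it passed the threshold without WT 6 (-0.61, 0.0396) and without the filter on low counts (-0.52, 0.00943). AF2 against KO gave -0.09 ± 0.17 (interval -0.44 to 0.25, adjusted p 0.888).

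The highest Slc9a3r1 values were those of WT 1 and WT 2, whose library codes form a run of their own, while the codes of WT 3 and 4 run on into KO and those of WT 5 and 6 into AF2. What a run of codes stands for is not given in the sources used here. Within a run, all 4 AF2 kidneys (mean 60.2 CPM) lay below WT 5 and 6 (82.1 and 64.4 CPM), and all 4 KO kidneys (mean 64.2 CPM) lay below WT 3 and 4 (79.1 and 84.6 CPM). How often all genes part in this way, 4 libraries against 2, was not counted. With the runs as a block the AF2 log2 fold change was -0.28 and the call was lost (adjusted p 0.537). The call also missed the threshold without AF2 1, 2, 3 or 4 (adjusted p 0.0816, 0.0546, 0.0644 and 0.0666) and without WT 2 (0.0629), with log2 fold changes of -0.70 to -0.47 over all 14 such fits. Without WT 1, the kidney with the high immune markers, it was -0.47 with an adjusted p of 0.0484. The part of the code runs and of the immune markers in the result was not tested.

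The other scaffold, Pdzk1 on chromosome 3, was not called. Its mean was 571 ± 55.1 CPM in AF2 kidneys, 551 ± 27.0 in KO kidneys and 600 ± 36.9 in WT kidneys. The log2 fold change was -0.07 ± 0.09 for AF2 against WT (interval -0.26 to 0.12, edgeR adjusted p 0.782) and -0.12 ± 0.09 for KO against WT (interval -0.31 to 0.07, adjusted p 0.701). Slc9a3r1 made up 8.80% to 10.9% of the reads of both scaffolds in AF2 kidneys, 9.22% to 11.9% in KO kidneys and 9.41% to 19.4% in WT kidneys. Pdzk1 shares 1333 exon bases with Gpr89 on the opposite strand, and the use of strand in counting is not given, so its tags may include some of Gpr89.

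The promoter windows of Slc9a3r1 and Slc37a2 are shown because these were the genes with the smallest p-values of the set in kidney and in duodenum. Each window holds 250 bases before the RefSeq start and 50 after it (GRCm38.p6). Vdr binds as a pair with a retinoid X receptor, typically at 2 half-sites in the same direction spaced by 3 bases. Both strands were searched for the half-site AGGTCA, which 16.3% of all 32851 promoter windows held, and for its variants AGTTCA (in 14% of windows), GGGTCA (in 13.7%) and GGTTCA (in 10.4%), and a match is printed in capitals.
Slc9a3r1, chr11:115163091-115163390 (plus strand): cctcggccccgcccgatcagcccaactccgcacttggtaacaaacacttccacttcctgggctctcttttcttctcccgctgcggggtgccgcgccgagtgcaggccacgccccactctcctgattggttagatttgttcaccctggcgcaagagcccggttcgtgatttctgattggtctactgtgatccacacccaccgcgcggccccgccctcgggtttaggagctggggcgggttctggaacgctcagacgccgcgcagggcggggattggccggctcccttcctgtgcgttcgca
Slc37a2, chr9:37255689-37255988 (minus strand): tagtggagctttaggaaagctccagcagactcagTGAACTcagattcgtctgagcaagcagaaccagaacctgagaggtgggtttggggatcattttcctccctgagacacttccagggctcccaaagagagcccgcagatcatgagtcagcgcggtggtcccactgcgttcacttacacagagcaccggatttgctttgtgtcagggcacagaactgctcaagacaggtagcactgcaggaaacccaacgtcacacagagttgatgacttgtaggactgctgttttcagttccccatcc
The Slc9a3r1 window held no half-site, and the Slc37a2 window held TGAACT, which is AGTTCA on the other strand, at base -216 from the start. Of the 9 genes 8 had a window (not Slc20a2), and Slc20a1 and Pdzk1 had 2 each. Of these 10 windows 7 held at least 1 half-site, as did 43.7% of all windows. A direct repeat spaced by 3 bases was found in 0 of the 10 and in 0.0396% of all windows. These are letters in a window, and binding was not measured.

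Kidney proximal tubule markers summed to 7888 to 9300 CPM in AF2 kidneys, 8583 to 8973 in KO kidneys and 7178 to 8465 in WT kidneys, so the tubule that carries the renal transporters was present in every library. Of 10 such markers, 1 was called higher (Acsm2) and 1 lower (Slc22a8) in AF2 against WT, and 2 higher (Acsm2 and Miox) and 1 lower (Slc22a8) in KO against WT. The log2 fold change was below 0 for 7 of the 10 in AF2 (median -0.22) and for 6 in KO (median -0.15). The 4 thick ascending limb markers summed to 3466 to 4023 CPM in AF2 kidneys, 3023 to 3806 in KO kidneys and 2298 to 3042 in WT kidneys, with Umod and Slc12a1 called higher in AF2 and Slc12a1 in KO. The 3 intercalated cell markers summed to 205 to 256 CPM in AF2 kidneys, 185 to 320 in KO kidneys and 155 to 198 in WT kidneys, with Slc4a1 called higher in AF2 (log2 fold change 0.81, edgeR adjusted p 0.0253). The distal convoluted tubule, collecting duct, endothelial and fibroblast lists had no call by edgeR in either mutant against WT. The part of these shifts in the Slc9a3r1 difference was not tested.

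In duodenum no gene of the set passed the test, and Slc37a2 came closest. The 3 type II cotransporters fell below the expression filter. Over all libraries of a group, Slc34a1 had 1, 4 and 1 reads in AF2, KO and WT duodenum, Slc34a2 had 2, 1 and 0 reads, and Slc34a3 had 0 reads in each. A count of 0 allows up to 0.316, 0.342 and 0.124 CPM in the pooled AF2, KO and WT libraries (3 reads, counting error only). Differences in these genes near or below such levels were not detectable at this depth. The WT level draws most on WT 2, with 25181916 counts against at most 6519522 in any other duodenum library. Of the 6 genes tested, edgeR called 0 in AF2 against WT (0.0677% of all 13302 genes), 0 in KO against WT (0.0226%) and 0 in AF2 against KO (0.015%). Unadjusted p-values under 0.05 were found for 1, 3 and 0 of the 6 genes and for 1564, 1519 and 1328 of all genes. DESeq2 called 0, 1 (Slc37a2) and 0 of the 6.

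**Figure D2:**
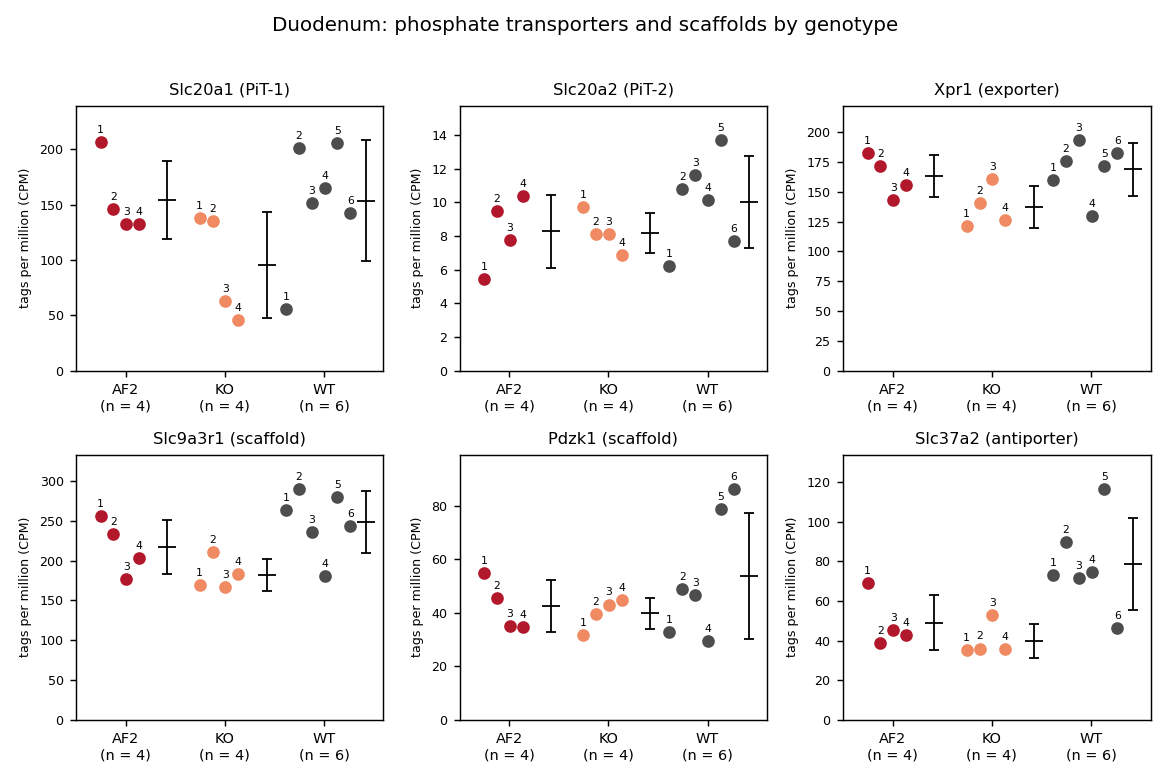
CPM in duodenum (y axis, from 0, own scale in each panel) of the 6 genes that passed the expression filter, by genotype (x axis). Points are libraries with their replicate numbers, and bars are the mean ± SD. For Slc37a2, 3 of 4 KO libraries lie at 35.3 to 36.0 CPM while the WT libraries reach 116 CPM, and KO 3 at 52.9 CPM overlaps WT 6 at 46.4 CPM.

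Slc37a2, on chromosome 9 at 37227585 to 37255738 (minus strand, mm10), had 69.2, 38.9, 45.4 and 42.6 CPM in AF2 duodenum 1 to 4. It had 35.3, 36.0, 52.9 and 35.6 CPM in KO duodenum. The WT values were 73.3, 89.5, 71.4, 74.4, 116 and 46.4 CPM. All 4 KO libraries lay below 5 of the 6 WT libraries, and the groups overlapped through WT 6. The mean was 49.0 ± 13.7 CPM in AF2, 40.0 ± 8.65 in KO and 78.6 ± 23.1 in WT. The log2 fold change for KO against WT was -0.97 ± 0.22 (interval -1.43 to -0.52), with an unadjusted p of 0.000267 and an edgeR adjusted p of 0.102. DESeq2 gave an adjusted p of 0.00556, edgeR without the filter on low counts gave 2.67e-07, and the fit without WT 6 gave 0.0203 at a log2 fold change of -1.09. With the code runs as a block it was -0.87 (adjusted p 0.865), with the replicate block -0.96 (0.0768), and in the other 13 fits without 1 library the adjusted p was 0.0508 to 0.327. For AF2 against WT it was -0.68 ± 0.21 (interval -1.13 to -0.23, edgeR adjusted p 0.216, or 0.0015 without the filter). Within the code runs, all 4 KO libraries lay below WT 3 and 4 (71.4 and 74.4 CPM). AF2 overlapped WT 5 and 6 (116 and 46.4 CPM). How often all genes part as KO did, 4 libraries against 2, was not counted.

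The scaffolds and the exporter had lower means in both mutants, without a call. Slc9a3r1 had 256, 233, 177 and 204 CPM in AF2 duodenum and 169, 210.3, 167 and 183 CPM in KO duodenum, against 181 to 290 CPM in WT duodenum with a median of 253 CPM. KO overlapped WT through WT 4, the lowest WT library, and the AF2 values lay among and below the WT values. Its log2 fold change was -0.20 ± 0.13 for AF2 against WT (adjusted p 0.591) and -0.45 ± 0.13 for KO against WT (interval -0.72 to -0.18, adjusted p 0.189). The KO value was -0.19 (adjusted p 0.960) with the code runs as a block, -0.40 (0.525) with the replicate block, -0.52 (0.0235) without WT 4 and -0.47 (0.0342) without the filter on low counts. Xpr1 averaged 163 ± 17.5 CPM in AF2, 137 ± 17.7 in KO and 169 ± 22.1 in WT, with a KO log2 fold change of -0.30 ± 0.12 (adjusted p 0.338). Pdzk1 averaged 42.6 ± 9.65, 39.8 ± 5.79 and 53.8 ± 23.6 CPM in AF2, KO and WT duodenum. Its WT values split by library code, with 79.0 and 86.2 CPM in WT 5 and 6 and 29.5 to 48.9 CPM in WT 1 to 4. Against WT 5 and 6, which share their run, all 4 AF2 libraries were lower (34.7 to 54.9 CPM). How often all genes part in this way, 4 libraries against 2, was not counted. The AF2 log2 fold change of Pdzk1 with the runs as a block was -0.96 (adjusted p 0.0263), against -0.34 (0.697) without the block.

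Slc20a1 was spread widely in duodenum. It had 206, 146, 132 and 133 CPM in AF2 duodenum, 138, 135, 63.2 and 45.6 CPM in KO duodenum, and 55.9 to 206 CPM in WT duodenum with a median of 158 CPM. WT 1 lay with the low KO libraries, and the other WT libraries were at or above 143 CPM. The log2 fold change was -0.69 ± 0.39 for KO against WT (interval -1.55 to 0.18, edgeR adjusted p 0.536). For AF2 against WT it was 0.00 ± 0.38 (interval -0.84 to 0.85). Slc20a2 averaged 8.27 ± 2.18 CPM in AF2, 8.20 ± 1.18 in KO and 10.02 ± 2.71 in WT, with adjusted p-values of 0.755 for AF2 and 0.722 for KO against WT. Within the code runs, all 4 KO libraries lay below WT 3 and 4 for Slc20a1 (152 and 165 CPM). The same held for Slc20a2 (10.1 and 11.6 CPM in WT 4 and 3). How often all genes part in this way, 4 libraries against 2, was not counted.

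All 6 genes tested had a KO log2 fold change below 0 in duodenum, with a median of -0.44 against 0.00 over all genes, and 5 of 6 were below 0 in AF2, with a median of -0.23. The 10 enterocyte markers were also all below 0 in KO (median -0.48) and in AF2 (median -0.35), with no call by edgeR in either. Their sum was 15674 to 23030 CPM in AF2, 15756 to 20056 in KO, and 15668 in WT 4 against 23792 to 32270 in the other WT libraries. WT 4 was the library in which Slc9a3r1, Xpr1 and Pdzk1 were lowest among WT. The other genes tested were not lowest there. Slc37a2 was lowest in WT 6 (46.4 CPM), which had the highest enterocyte sum (32270 CPM). Slc20a1 and Slc20a2 were lowest in WT 1 (55.9 and 6.21 CPM). The 4 Paneth cell markers had a median log2 fold change of 0.61 in AF2 and 0.94 in KO. Their sums had medians of 3673, 4495 and 2325 CPM in AF2, KO and WT, and both mutants overlapped WT. Median log2 fold changes in AF2 and KO were 0.34 and 0.30 for fibroblast markers and 0.20 and 0.47 for stem and proliferating markers. For smooth muscle markers they were 0.50 and -0.09. None of these lists had a call by edgeR in either mutant against WT. Pancreatic acinar markers, a sign of pancreas in the sample, summed to 94.9 to 2764 CPM in AF2, 28.1 to 3323 in KO and 5.24 to 6536 in WT. The part of tissue makeup in the lower values was not tested.

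**Figure D3:**
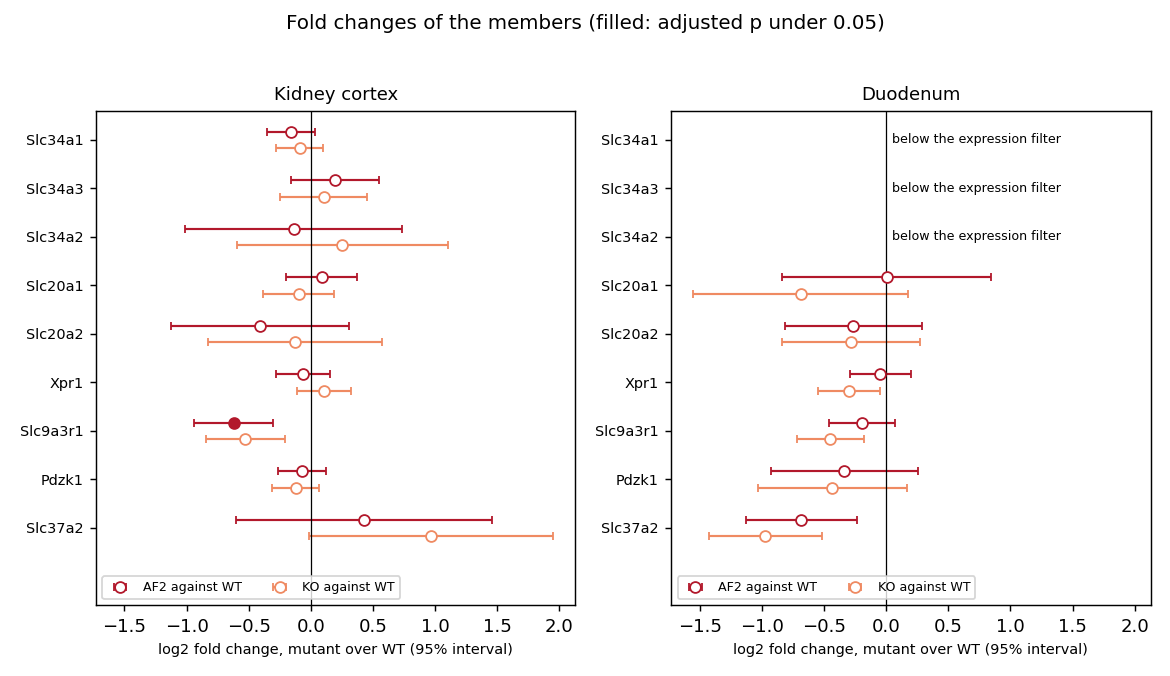
Log2 fold change over WT (x axis) of each gene in kidney (left) and duodenum (right), with AF2 above KO in each pair; whiskers are 95% intervals and filled points have an edgeR adjusted p under 0.05. Slc9a3r1 in AF2 kidney (-0.62) is the filled point, all KO points in duodenum lie left of 0, and Slc37a2 lies left of 0 in duodenum and right of 0 in kidney.

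The type II cotransporters were read in kidney and almost not in duodenum, while the type III pair, the exporter, the scaffolds and Slc37a2 were read in both tissues. In WT kidney against WT duodenum, edgeR called all 6 genes that passed the filter in both tissues, as it did 69.9% of all 14944 genes tested in the joint fit. Of the 6, 2 were higher (34.3% of all genes) and 4 lower (35.7%). The type II cotransporters entered the joint fit only through kidney, so their direction was set by the filter and they are given by reads. Slc34a1 had 38834 reads over the WT kidneys against 1 over the WT duodenum libraries, a ratio of 67400 with a counting interval of 12100 to 2662000. Slc34a3 was at least 278-fold higher and Slc34a2 at least 35.3-fold higher in WT kidney, since each had 0 reads in WT duodenum. The WT duodenum pool behind these ratios draws most on WT 2, the deepest library. Pdzk1 (log2 3.55 ± 0.20) and Slc20a2 (1.42 ± 0.26) were called higher in WT kidney. Slc37a2 (-5.68 ± 0.25), Slc20a1 (-1.97 ± 0.26), Slc9a3r1 (-1.36 ± 0.14) and Xpr1 (-0.62 ± 0.10) were called lower in WT kidney. For Slc37a2 no WT kidney reached the level of the expression filter, so the filter favoured its direction. Of the scaffolds, Pdzk1 was higher and Slc9a3r1 lower in WT kidney. Slc34a2 at 0 reads in WT duodenum sits beside its known place in the ileum, a segment not sampled here.

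Slc37a2 in kidney rested on few reads. The AF2 kidneys had 4, 5, 2 and 7 reads, the KO kidneys had 4, 6, 10 and 10 reads, and the WT kidneys had 2 to 5 reads with a total of 21. In CPM every KO kidney (2.06 to 3.78) lay above every WT kidney (1.07 to 1.83), alone among the 9 genes, as was so for 1.7% of all genes tested. No WT kidney reached the level of the expression filter for Slc37a2. It entered the kidney test through mutant kidneys, so the filter favoured this separation. KO against WT gave a log2 fold change of 0.97 ± 0.48 (interval -0.01 to 1.95) with an edgeR adjusted p of 0.483, so kidney alone did not pass.

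The effect of each genotype was then compared between tissues by an interaction term in 1 fit of all 28 libraries. For KO, 1 of the 9 genes was called, against 0.0535% of all 14944 genes (0.0335% in the higher direction): the effect on Slc37a2 was 1.99 ± 0.40 higher on the log2 scale in kidney than in duodenum (edgeR adjusted p 0.0401). With counts divided by 2 it was 1.97 and the adjusted p was 0.0859. It was called in 16 of 28 fits that left out 1 library, with values of 1.82 to 2.16 and adjusted p-values of 0.0137 to 0.137, the highest without kidney KO 4. The call was also lost without duodenum KO 1 or 2, duodenum WT 2, kidney AF2 1 or 2, kidney KO 2 or 3, and kidney WT 1, 2, 5 or 6. For AF2, 0 of 9 were called by edgeR (0.381% of all genes), with 2 unadjusted p-values under 0.05, those of Slc37a2 and of Slc34a2; DESeq2 was not run for the interaction. The AF2 effect on Slc37a2 differed by 1.12 ± 0.43 (adjusted p 0.290), and that on Slc9a3r1 by -0.41 ± 0.22 (interval -0.85 to 0.03, adjusted p 0.517). The KO effect on Slc9a3r1 differed by -0.04 ± 0.22 (interval -0.48 to 0.40). For KO, 3 of the 9 genes had an unadjusted p under 0.05 in edgeR, those of Slc37a2, Slc34a1 and Xpr1. Over all 14944 genes 1194 did for KO and 1598 for AF2. The KO effect on Xpr1 differed by 0.44 ± 0.16 (interval 0.11 to 0.77, edgeR adjusted p 0.431). The type II cotransporters give no usable interaction, since they were at or near 0 reads in duodenum.

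**Figure D4:**
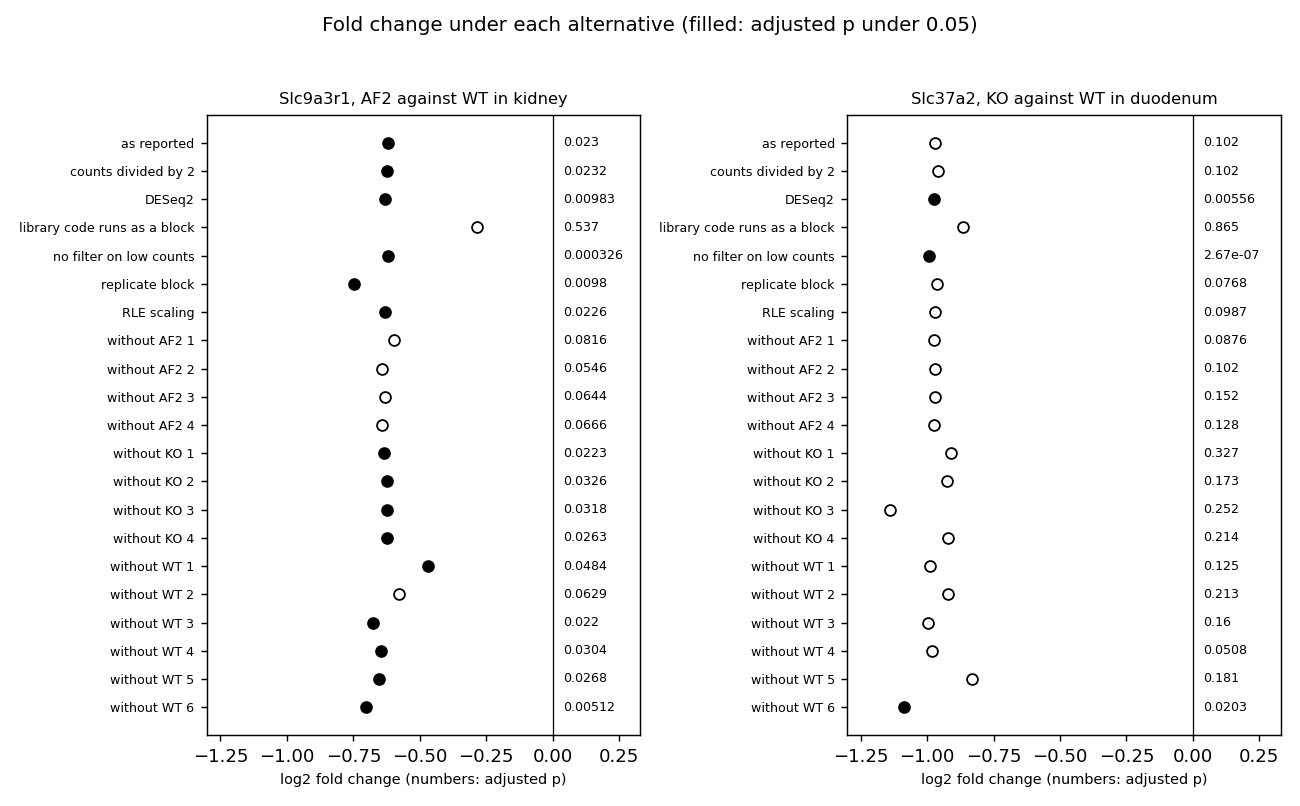
Log2 fold change (x axis) of Slc9a3r1 in AF2 against WT kidney (left) and of Slc37a2 in KO against WT duodenum (right) under each setting (y axis), with the adjusted p at the right and filled points where it was under 0.05. Every value lies below 0; Slc9a3r1 loses its call with the library code runs as a block (adjusted p 0.537), and Slc37a2 is called with DESeq2 (0.00556), without the filter and without WT 6.

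Other genes of phosphate handling were followed as 5 lists chosen by role. In duodenum edgeR called 0 of their 43 tested genes in each genotype comparison, with 4 (AF2 against WT), 3 (KO against WT) and 4 (AF2 against KO) at an unadjusted p under 0.05, and DESeq2 called 1, 0 and 0. In kidney edgeR called 0 of 51 in AF2 against KO, with 8 at an unadjusted p under 0.05, and DESeq2 called 3. In kidney 1954 (AF2 against WT), 1424 (KO against WT) and 1553 (AF2 against KO) of all 13502 genes had an unadjusted p under 0.05. In duodenum 1564, 1519 and 1328 of all 13302 genes did. Over all genes DESeq2 called 144, 97 and 79 in duodenum. In kidney it called 211 in KO against WT and 161 in AF2 against KO. Over all kidney genes edgeR called 2.71% in AF2 against WT, 0.844% in KO against WT and 0.333% in AF2 against KO, and over all duodenum genes 0.0677%, 0.0226% and 0.015%. Of 11 other phosphate carriers tested in kidney, 0 were higher and 2 lower in AF2 against WT, as were 1.63% of all genes in the lower direction, with a list median of 0.11 against 0.00 over all genes. Slc17a3, an organic anion carrier of the proximal tubule in the family of sodium-phosphate transporters, fell to 180, 307, 187 and 234 CPM in AF2 kidneys, against 320 to 412 CPM in WT kidneys with a median of 362. The AF2 range lay wholly below WT, as did that of 2.36% of all genes tested. For AF2 against WT the log2 fold change of Slc17a3 was -0.68 ± 0.13 (edgeR adjusted p 0.00147). In KO kidneys Slc17a3 had 232, 295, 257 and 237 CPM (-0.51 ± 0.13, adjusted p 0.0449). The KO call was lost at -0.45 with the code runs as a block (0.618) and without KO 1, 3 or 4 or WT 2, 4, 5 or 6 (0.0695 to 0.178). Slc37a4, the glucose-phosphate carrier of the endoplasmic reticulum and a relative of Slc37a2, averaged 126 ± 5.54 CPM in AF2 kidneys, 161 ± 6.58 in KO kidneys and 171 ± 15.6 in WT kidneys. It was called lower in AF2 (-0.44 ± 0.10, adjusted p 0.00827), a call lost at -0.40 with the code runs as a block (0.166), and for KO against WT it had -0.09 ± 0.10 (0.790).

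Of 12 scaffold partners tested in kidney, edgeR called 0 in AF2 against WT and DESeq2 called 1. In that comparison 4 had an unadjusted p under 0.05, as did 1954 of all 13502 genes. In KO against WT edgeR called 1 lower. That gene was Pdzd3, a further PDZ scaffold of the brush border, with 59.2, 42.4, 49.0 and 46.9 CPM in KO kidneys, against 61.2 to 94.1 CPM in WT kidneys with a median of 71.4. Its KO log2 fold change was -0.57 ± 0.14 (edgeR adjusted p 0.0367), and its AF2 value was -0.45 ± 0.14 (0.0738), with 47.8 to 65.9 CPM in AF2 kidneys. The KO call was lost at -0.54 with the code runs as a block (0.342) and without KO 2, 3 or 4 or WT 3, 4, 5 or 6 (0.052 to 0.146). Of 14 genes of hormonal control tested in kidney, 1 was higher and 1 lower in each mutant, and these were the calcitriol enzymes. Over all genes edgeR called 2.71% in AF2 and 0.844% in KO against WT, in either direction. Cyp27b1, which makes calcitriol, ranged from 21.5 to 327 CPM in AF2 kidneys and from 48.4 to 166 in KO kidneys, against 0.733 to 3.46 in WT kidneys. Its log2 fold change was 6.88 for AF2 (edgeR adjusted p 0.000473) and 5.93 for KO (0.00445). With the code runs as a block these were 7.14 (0.0726) and 6.48 (0.257), and with the replicate block the KO value was 5.97 (0.157). Cyp24a1, which breaks it down, averaged 0.222, 0.103 and 16.5 CPM in AF2, KO and WT kidneys (2, 1 and 233 reads). Only WT kidneys carried Cyp24a1 past the expression filter, and Cyp27b1 needed the mutant kidneys to pass it. The filter therefore favoured the directions of both calls. DESeq2 called 2 genes of this list in AF2 and 3 in KO against WT. Among 7 inositol pyrophosphate enzymes, whose products gate Xpr1, and 7 enzymes that free phosphate outside the cell, edgeR called 0 in kidney in either mutant against WT; 1 gene of each list had an unadjusted p under 0.05 in AF2 and 0 in KO, and DESeq2 called 1 gene of the second list in AF2.

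The pattern of each gene over the 14 libraries of a tissue was set beside that of every other expressed gene by Pearson's r of log2 CPM. This is a description over libraries that differ in genotype and depth. In duodenum the closest to Slc37a2 were Fbxo3 (r = 0.887), Ube2d3 (0.83) and Degs1 (0.785), and the closest to Slc9a3r1 were Fam214b (0.911), Apobec1 (0.903) and Myo7b (0.899). Those closest to Xpr1 were Glrx (0.922), Gab1 (0.917) and Ankrd9 (0.902), to Pdzk1 were Prxl2a (0.913), C2cd2l (0.886) and the enterocyte marker Apoa4 (0.874), to Slc20a1 were Tgfb1i1 (0.888), Ttc7 (0.864) and Palld (0.863), and to Slc20a2 were Ghr (0.829), Fcer1g (0.773) and Sh3bp1 (0.761). Within the set, the highest r in duodenum was that of Xpr1 and Slc9a3r1 (0.746, or 0.602 within genotypes). In kidney the closest to Slc34a1 were Dcxr (0.869), Snx17 (0.845) and Khk (0.8), and the highest r within the set joined Slc34a1 and its scaffold Pdzk1 (0.653, or 0.619 within genotypes). Slc9a3r1 was closest to Itgav (0.868), Adk (0.868) and Abcc3 (0.855), and without WT 1 and 2 these fell to 0.593, 0.625 and 0.653. Slc20a2 was closest to Pmpcb (0.978), Mrps28 (0.976) and Nup107 (0.976), and without AF2 4 and WT 4 these were 0.424, 0.431 and 0.777. Pdzk1 was closest to Fads3 (0.898), Acy1 (0.85) and Atg14 (0.835), Xpr1 to Cast (0.835), Traf4 (0.787) and Nans (0.785), and Slc20a1 to Farsa (0.841), 2410002F23Rik (0.819) and Mydgf (0.816). Slc34a3 was closest to Syngr1 (0.831), Fbxo31 (0.807) and Cox7a1 (0.804), Slc34a2 to Enox2 (0.89), Prkce (0.884) and Arhgdib (0.878), and Slc37a2 to Mak16 (0.884), Klhl3 (0.864) and Fer (0.862), the last 2 members resting on few reads. Over all 9 genes the named r values in kidney ran from 0.785 to 0.978. Each was picked as 1 of the 3 highest among 9324 to 9577 genes, so high values come partly from the choice. Without the 2 libraries farthest from a gene's median some r values fell and others rose. In duodenum Tgfb1i1 with Slc20a1 fell to 0.653, and Apobec1 with Slc9a3r1 rose to 0.936.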

How the data were processed

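The 28 samples, 14 from each tissue, were sequenced from transcript 3′ ends (QuantSeq kit on total RNA, per the labels' protocols). The authors deposited raw counts for each gene symbol, with genotype, diet and sex per the file headers. Per the submitters' processing notes, the build is mm10 and limma 3.34.9 was used, with no role given. How reads were aligned and counted, and whether strand was used, is not given in the sources used here. All values were even (0 odd values), so 1 read is taken as 2 counts; the deposited counts entered the tests unaltered. No 2 libraries of a group were identical, and their smallest chi-square per degree of freedom was 5 in duodenum and 1.96 in kidney.

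Genotypes came from the sample titles. For each tissue, edgeR 4.0.16 (R 4.3.3) was run on all 14 libraries with filterByExpr by group, TMM scaling and its robust quasi-likelihood test, with genotype alone in the model. A gene was called when its Benjamini-Hochberg adjusted p, taken over the 13302 duodenum or 13502 kidney genes that passed, was under 0.05. Where no tool is named, an adjusted p is from edgeR. Interactions and WT tissue differences came from 1 fit of all 28 libraries on 14944 genes. Intervals of log2 fold changes are 95%, and the floor of 3 reads and the intervals of read ratios cover counting error only. The alternatives were DESeq2 1.42.0, RLE scaling, no filter on low counts, counts divided by 2, blocks for replicate number and for library code run, and leaving out each library. The steps were tested on simulated data.

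The 9 genes, the lists and the tests were chosen with earlier results of these data known. Named were the 9 genes in every comparison, Vdr, up to 4 called genes of each list by smallest p, and for each of the 9 that passed the filter the 3 genes with the highest r over 14 libraries (average log2 CPM at least 3, prior count 2). The called tissue markers were named after their values were seen. Coordinates are from GENCODE vM21 on GRCm38 (mm10), which matched 97.2% of duodenum and 97.3% of kidney symbols. Promoters are RefSeq sequences (GRCm38.p6), and protein sequences were not used here. Of the kidney cell lists, 1 is not reported here.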

Additional observations from a re-analysis of the deposited data

Results flagged for a closer look

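The value of Slc20a2 in kidney WT 4 (18.3 CPM) lay far below the other WT kidneys, which ranged from 25.2 to 28.5 CPM. In duodenum, Slc37a2 in KO 3 (52.9 CPM) lay far above the other KO libraries, which ranged from 35.3 to 36.0 CPM. Both stood out by the gap to the nearest library over the range of the group, among 45 groups of 1 gene, tissue and genotype that were examined, and chance marks about 1 in 20 groups. The KO effect on Slc37a2 differed between tissues, by 1.99 on the log2 scale higher in kidney than in duodenum, in the test of that difference. The edgeR adjusted p was 0.0401, and 0.0859 with counts divided by 2. It was called in 16 of 28 fits without 1 library, and its kidney values rest on few reads.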

How the results depend on the processing

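Counts of called genes moved with the processing. AF2 against WT in duodenum had 9 genes called, and 144 with DESeq2, 131 with the library code runs as a block, 240 without the filter on low counts and 1 with the replicate block. KO against WT in duodenum had 3, and 8 with counts divided by 2, 97 with DESeq2, 1 with the code runs and 215 without the filter. AF2 against KO in duodenum had 2, and 79 with DESeq2, 5 with the code runs, 106 without the filter and 14 with the replicate block. In kidney AF2 against WT had 366, and 121 with the code runs and 590 without the filter. KO against WT in kidney had 114, and 211 with DESeq2, 25 with the code runs and 252 without the filter. AF2 against KO in kidney had 45, and 161 with DESeq2, 1 with the code runs and 193 without the filter. The AF2 interaction had 57, and 36 with the replicate block, which for fits over both tissues was chosen after seeing the data. The KO interaction had 8, and 23 without the filter. The cause was not tested.

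Of the 9 genes, the number called in AF2 against WT in duodenum was 0, and 1 with the code runs (Pdzk1) or without the filter (Slc37a2). For KO against WT in duodenum it was 0, and 1 with DESeq2 and 2 without the filter. For AF2 against WT in kidney it was 1, and 0 with the code runs. For KO against WT in kidney it was 0, and 1 without the filter (Slc9a3r1). For the KO interaction it was 1, and 0 with counts divided by 2.

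Leaving out 1 library gave 0 to 217 genes called for AF2 against WT in duodenum, 1 to 229 for KO against WT in duodenum (both highest without WT 4) and 1 to 4 for AF2 against KO in duodenum. In kidney it gave 294 to 365 for AF2 against WT, 38 to 206 for KO against WT (lowest without KO 4, highest without AF2 4) and 22 to 78 for AF2 against KO. It gave 19 to 123 for the AF2 interaction, 0 to 23 for the KO interaction and 10105 to 10691 for WT kidney against WT duodenum. The 9 genes gave 0 to 1 calls in KO against WT in duodenum, in AF2 and in KO against WT in kidney and in the KO interaction, 9 in WT kidney against WT duodenum (the 3 type II cotransporters among them entered through kidney alone), and 0 elsewhere.

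Same-numbered libraries had correlations of -0.104 to 0.145, with 1 pair over 0.1. No differently numbered pairs were set beside them, so these values cannot settle whether replicate numbers pair the samples. With the replicate block Slc9a3r1 in AF2 against WT kidney was -0.75 (edgeR adjusted p 0.0098), and the KO calls of Slc17a3 (-0.48, adjusted p 0.0624), Pdzd3 (-0.45, 0.23) and Cyp27b1 (5.97, 0.157) were lost. None of the values that changed sign was called. With the replicate block these were, in duodenum, Pdzk1 (0.122 in AF2 and 0.035 in KO against WT), Xpr1 (0.003 in AF2 against WT) and Slc20a2 (-0.019 in AF2 against KO), and in kidney Slc34a2 (-0.018 in KO against WT). With the code runs as a block they were, in duodenum, Slc20a1 (-0.175 in AF2 against WT), Pdzk1 (0.073 in KO against WT and -1.03 in AF2 against KO) and Slc9a3r1 (-0.075 in AF2 against KO). In kidney they were Slc34a2 (0.694 in AF2 and -0.028 in KO against WT, 0.722 in AF2 against KO), Slc20a2 (0.080) and Slc34a3 (-0.059) in KO against WT, and Slc34a1 (0.098) and Slc9a3r1 (0.063) in AF2 against KO. Without the filter they were Slc20a1 in AF2 against WT duodenum (-0.012), Xpr1 in the AF2 interaction (0.014) and Slc9a3r1 in the KO interaction (0.009).

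Leaving out 1 library changed signs within these ranges. In AF2 against KO they were -0.042 to 0.186 for Pdzk1 and -0.1 to 0.176 for Slc20a2 in duodenum, and -0.015 to 0.116 for Pdzk1, -0.521 to 0.07 for Slc20a2 and -0.019 to 0.29 for Slc34a3 in kidney. In AF2 against WT they were -0.167 to 0.106 for Slc20a1 and -0.102 to 0.021 for Xpr1 in duodenum, and -0.003 to 0.136 for Slc20a1 and -0.346 to 0.021 for Slc34a2 in kidney. In KO against WT in kidney they were -0.039 to 0.416 for Slc34a2 and -0.1 to 0.208 for Slc34a3. In the AF2 interaction they were -0.01 to 0.278 for Slc20a1, -0.361 to 0.223 for Slc20a2 and -0.055 to 0.07 for Xpr1, and in the KO interaction -0.123 to 0.07 for Slc9a3r1. Depth limits Slc34a2 and Slc37a2 in kidney, which rest on 18 to 61 reads per group, and the type II cotransporters in duodenum.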
